A study of Rattus norvegicus with 15 samples.

Results

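The genes described here encode the proteins by which cells sense lipopolysaccharide, the outer-membrane component of gram-negative bacteria, and pass the signal on from Toll-like receptors. They were the rows of the expression table whose gene name was one of 10 fixed names, and 9 of these had a row among 22250 genes: Lbp, Cd14, Tlr4, Tlr2, Tirap, Myd88, Irak4, Irak1 and Irak3. The remaining gene, Ly96, which encodes the MD-2 partner of TLR4, was not analysed here. The names were chosen by function and the rule used no measured value, but earlier results of these data were known at the time. All 9 genes passed the filter on low values and were tested.

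Gene expression was measured by RNA sequencing of whole lung from wild-type rats in 15 libraries. The control group held 5 libraries of normal rats, the COPD group 5 libraries of rats given lipopolysaccharide and smoke through the trachea to model chronic obstructive pulmonary disease, and the WDD group 5 libraries of rats given the same exposure plus Wendan Decoction, an herbal formula, into the stomach. For strain, age, doses and times the sources used here give nothing. Nor do they say whether libraries of a group stem from different animals, and p-values therefore reflect only the spread among these libraries, which may be technical. Expression values are FPKM, fragment counts divided by gene length and by the size of the library, so that levels of different genes can be set side by side.

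Lipopolysaccharide is first bound by LBP, a secreted protein that passes it to CD14 on myeloid cells and in fluids. CD14 hands it to the complex of TLR4 and MD-2, whereas TLR2 recognises bacterial lipoproteins. Both receptors recruit the sorting adaptor TIRAP and then MYD88, which assembles with the kinases IRAK4 and IRAK1 and leads to NF-kappaB activation. IRAK3, also called IRAK-M, is a kinase homologue that dampens this signal and is known from macrophages made tolerant to lipopolysaccharide.

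Promoter sequences are shown for 6 of these genes, to set the genes that rose in COPD lungs and have an entry beside Tlr4, the receptor itself. They are RefSeq sequences of build GRCr8, 300 bases long, from 250 before to 50 after the annotated start, matched by symbol. The FPKM values were made on Rnor_6.0, so these positions do not carry over to the files. A promoter entry was found for 8 of the 9 genes, with a pair of entries for Tirap and none used for Lbp. Capitals mark matches to any of 7 motifs searched on both strands.
Tlr2, chr2:171504508-171504807, minus strand: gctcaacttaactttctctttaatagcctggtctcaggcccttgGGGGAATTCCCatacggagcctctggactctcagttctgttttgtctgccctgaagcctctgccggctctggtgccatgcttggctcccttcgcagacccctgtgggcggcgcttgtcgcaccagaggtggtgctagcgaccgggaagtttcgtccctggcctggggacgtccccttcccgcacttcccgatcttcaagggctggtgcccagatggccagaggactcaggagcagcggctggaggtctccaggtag
Irak3, chr7:57598582-57598881, minus strand: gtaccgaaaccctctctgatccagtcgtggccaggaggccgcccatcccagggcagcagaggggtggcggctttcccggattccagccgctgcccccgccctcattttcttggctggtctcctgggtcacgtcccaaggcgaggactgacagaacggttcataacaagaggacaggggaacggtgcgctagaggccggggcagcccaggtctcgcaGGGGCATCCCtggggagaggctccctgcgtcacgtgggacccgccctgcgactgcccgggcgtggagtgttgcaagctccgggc
Myd88, chr8:127956181-127956480, minus strand: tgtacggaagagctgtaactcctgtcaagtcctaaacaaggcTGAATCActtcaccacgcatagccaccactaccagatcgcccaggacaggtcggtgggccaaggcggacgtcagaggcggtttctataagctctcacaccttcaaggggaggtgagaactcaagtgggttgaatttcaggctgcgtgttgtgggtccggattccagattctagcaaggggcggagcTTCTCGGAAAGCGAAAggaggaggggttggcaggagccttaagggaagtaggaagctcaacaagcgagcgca
Cd14, chr18:28611109-28611408, minus strand: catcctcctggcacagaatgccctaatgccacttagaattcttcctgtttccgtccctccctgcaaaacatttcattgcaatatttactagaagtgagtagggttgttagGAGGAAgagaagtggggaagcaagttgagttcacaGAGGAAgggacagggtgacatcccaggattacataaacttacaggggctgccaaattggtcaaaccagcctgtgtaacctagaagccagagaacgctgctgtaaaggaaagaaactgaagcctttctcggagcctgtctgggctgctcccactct
Irak4, chr7:127561527-127561826, plus strand: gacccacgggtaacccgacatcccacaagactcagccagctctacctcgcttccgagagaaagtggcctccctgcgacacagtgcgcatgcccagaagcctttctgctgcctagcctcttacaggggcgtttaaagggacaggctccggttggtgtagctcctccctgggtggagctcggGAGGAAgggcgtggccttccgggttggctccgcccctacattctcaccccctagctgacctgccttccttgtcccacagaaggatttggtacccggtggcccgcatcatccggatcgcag
Tlr4, chr5:85160997-85161296, plus strand: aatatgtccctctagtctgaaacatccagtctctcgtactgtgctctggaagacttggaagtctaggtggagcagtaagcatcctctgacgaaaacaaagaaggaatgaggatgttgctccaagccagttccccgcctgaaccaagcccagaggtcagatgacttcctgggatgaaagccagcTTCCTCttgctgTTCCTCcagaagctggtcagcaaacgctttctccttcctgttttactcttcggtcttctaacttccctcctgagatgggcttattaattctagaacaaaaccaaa

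The 10-base kappaB consensus, to which NF-kappaB binds, was found in the Tlr2 promoter as overlapping matches from 206 bases before the start, and once in that of Irak3, 34 bases before it. Of all 33469 promoters in the table, 4.18% held it. The Myd88 promoter held an AP-1 match (TGANTCA, in 7.33% of all promoters) and, overlapping each other near the start, a STAT match (TTCNNNGAA, 8.87%) and an interferon response core (GAAA, any 2 bases, GAAA, in 3.92%). The PU.1 core GAGGAA, a motif of a myeloid factor found in 27.6% of promoters, occurred in a pair of places in Cd14 and in Tlr4, and once in Irak4. The cAMP response element TGACGTCA (1.83%) and the C/EBP motif TTGCNNAA (10.6%) were in none of the members' windows, and those of Tirap and Irak1 held none of the 7 motifs. A match is a string of letters in this window only.

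Whole libraries differed between the groups before single genes were considered. The steps between low FPKM values placed library depth at 0.879 to 1.11 times that of control 2. The search covered only depths near that of control 2, so a depth far from it could not be returned. In COPD libraries the estimate rested on 55 to 72 genes. The share of the FPKM sum held by 13 mitochondrially encoded genes was 8.11% ± 1.94 in control, 44.9% ± 12.4 in COPD and 21.7% ± 2.90 in WDD lungs (mean ± SD, n = 5). Over the 13172 genes tested, the median log2 fold change was -0.81 for COPD against control, 0.54 for WDD against COPD and -0.23 for WDD against control. After median-of-ratios scaling, which aligns the libraries on their middle genes, these medians were -0.05, 0.03 and 0.00. Relative to the control mean, the median of 14 long housekeeping transcripts lay between -1.82 and -1.28 in COPD and between -1.08 and -0.71 in WDD libraries on the log2 scale, and that of 13 short ones between -0.21 and 1.16 and between 0.79 and 1.00. These lists were written by hand after the data had been seen, and the part of this difference in the results below was not tested.

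In COPD against control lungs, 6 of the 9 genes rose, 1 fell and 2 did not pass (limma, adjusted p under 0.05). Of all genes tested, 74.7% were called in either direction, 8.23% higher and 66.4% lower. The members that rose were Tlr2, Lbp, Irak3, Cd14, Myd88 and Irak4, and the one that fell was Tirap. The median log2 fold change of the 9 genes was 1.02, beside -0.81 for all genes. After median-of-ratios scaling 7 rose, Irak1 being added, and Tirap again fell, with 30.0% of all genes called higher and 32.6% lower and a median of 1.92 for the members. In 4 of the 9 genes every COPD library lay above every control library (3.99% of all genes), and in 1 every COPD library lay below (52.3% of all genes).

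**Figure D1:**
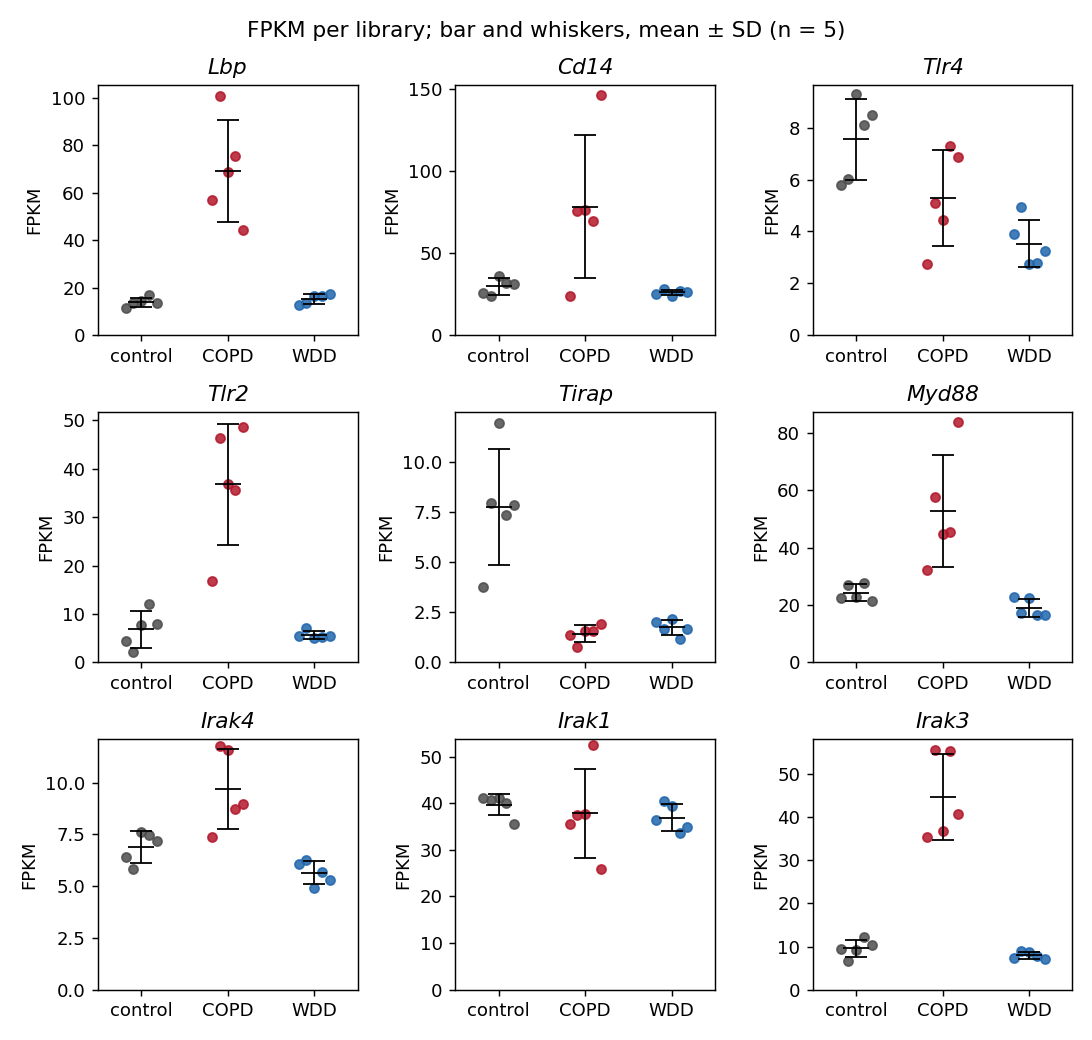
FPKM of the 9 genes (vertical axes, starting at 0) in each library of the control, COPD and WDD groups. Points are libraries in the order of their replicate numbers, and bars with whiskers are the mean ± SD of 5. Lbp, Tlr2 and Irak3 stand apart in COPD lungs, Irak1 is level, and Tirap is low in both exposed groups.

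Lbp, the secreted carrier of lipopolysaccharide, stood at 11.6, 13.7, 14.3, 16.8 and 13.6 FPKM in control libraries 1 to 5 and at 56.9, 100.9, 68.6, 75.6 and 44.2 in COPD libraries 1 to 5. It stood at 12.8, 13.5, 16.5, 16.5 and 17.3 FPKM in WDD libraries 1 to 5. Every COPD library was thus above all others, and the control and WDD ranges overlapped. The log2 fold change was 2.18 ± 0.18 (± SE) for COPD against control (adjusted p = 3.58e-08, limma) and -2.06 ± 0.18 for WDD against COPD (adjusted p = 3.03e-07). LBP is made mainly by the liver and can also be made in lung, so liver genes were looked at beside it. Of 7 hepatocyte markers 6 were in the table, with a summed level of 3.16 to 4.46 FPKM in control, 1.80 to 4.66 in COPD and 1.35 to 2.44 in WDD lungs. Alb, which encodes albumin, did not exceed 0.180 FPKM in any library. Fga was at 0 in all control and all WDD libraries and reached 0.665 FPKM in the COPD group. The 2 markers that passed the filter, Apoa2 and Serpinc1, reached 4.59 and 3.08 FPKM. In COPD against control 1 of them was called higher and 1 lower, beside 8.23% and 66.4% of all genes. The source of the Lbp transcripts was not tested.

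Cd14, the co-receptor that hands lipopolysaccharide to TLR4, stood at 25.9, 23.7, 36.3, 32.0 and 31.6 FPKM in the control libraries. The COPD libraries were uneven, at 24.0, 75.9, 76.7, 69.8 and 146.6 FPKM, and the WDD libraries close together, at 25.4, 28.3, 24.2, 27.2 and 26.4. COPD 1 thus lay within the control range, whereas the other 4 lay above it. The log2 fold change was 1.17 ± 0.31 for COPD against control (adjusted p = 0.00277, limma) and -1.34 ± 0.31 for WDD against COPD (adjusted p = 0.00153). COPD 1 had the highest mitochondrial share of the COPD group, 65.0%. After median-of-ratios scaling its Cd14 value was 41.8, above the highest control value of 27.5, and the log2 fold change against control was 2.08.

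Tlr4, the receptor itself, was among the genes of low level, at 5.79, 6.03, 9.31, 8.11 and 8.47 FPKM in the control libraries. It stood at 2.73, 5.09, 4.45, 7.29 and 6.86 FPKM in the COPD libraries and at 3.91, 4.93, 2.74, 2.80 and 3.26 in the WDD libraries. COPD and control libraries overlapped, as did COPD and WDD libraries, while every WDD library lay below every control library. The log2 fold change for COPD against control was -0.48 (95% confidence interval -0.93 to -0.03) and did not pass (adjusted p = 0.0514, limma). It lay above the -0.81 of all genes and turned to 0.32 when scaled by median of ratios (-0.12 to 0.75, adjusted p = 0.195) and to 0.51 under quantile normalisation (adjusted p = 0.0258). On the deposited values the call for lower Tlr4 was made without control 1, control 2, COPD 4, COPD 5 or WDD 2 (adjusted p = 0.0353, 0.0424, 0.0214, 0.0215 and 0.0485, limma). The direction for Tlr4 between COPD and control lungs thus turned with the scaling.

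Between WDD and COPD lungs the log2 fold change of Tlr4 was -0.44 (-0.89 to 0.01, adjusted p = 0.0816, limma). It was -0.98 after median-of-ratios scaling (adjusted p = 0.0013), where 21.4% of all genes were called lower. On the deposited values it was called without COPD 1 (-0.61, adjusted p = 0.0119) or without WDD 2 (-0.54, adjusted p = 0.0459). Between WDD and control lungs Tlr4 fell by 0.92 ± 0.21 (adjusted p = 0.00308, limma), and by 0.67 after median-of-ratios scaling (adjusted p = 0.0214) and 0.51 under quantile normalisation (adjusted p = 0.0394). In WDD against control, 31.0% of all genes were called lower. The long housekeeping transcripts lay -0.88 and the short ones 0.92 from the control mean on average over the WDD libraries. Whether Tlr4 moved with either class by its length was not tested. Tlr4 lay at the 11.4th percentile of all log2 fold changes in that comparison.

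Tlr2, the receptor for bacterial lipoproteins, stood at 4.41, 2.07, 7.71, 12.1 and 7.89 FPKM in control libraries and at 16.9, 46.3, 36.9, 35.6 and 48.6 in COPD libraries. In WDD libraries it stood at 5.42, 7.15, 5.03, 5.27 and 5.49 FPKM, inside the control range. No COPD library overlapped either other group, although COPD 1 was low within its own. Its log2 fold change was 2.35 ± 0.33 for COPD against control (adjusted p = 7.74e-06, limma) and -2.43 ± 0.33 for WDD against COPD (adjusted p = 1.61e-05). In control lungs Tlr2 had the lowest mean of the 9 genes, 6.84 ± 3.82 FPKM, and in COPD lungs, at 36.9 ± 12.5, it came close to Irak1, at 37.8 ± 9.48.

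The adaptors moved in opposite directions. Tirap, which brings MYD88 to the receptors at the membrane, stood at 3.74, 7.95, 11.9, 7.33 and 7.82 FPKM in control libraries. Its values were 1.39, 0.756, 1.56, 1.55 and 1.93 FPKM in COPD and 1.99, 1.68, 2.18, 1.18 and 1.69 in WDD libraries. Every exposed library, treated or not, lay below every control library, and the COPD and WDD ranges overlapped. The log2 fold change was -1.79 ± 0.22 for COPD against control (adjusted p = 1.70e-06, limma) and -1.61 ± 0.22 for WDD against control (adjusted p = 6.82e-05). For WDD against COPD it was 0.18 (-0.28 to 0.64, adjusted p = 0.482), and -0.24 after median-of-ratios scaling. The fall in COPD lungs lay at percentile 12.02 of all genes and was -1.11 after median-of-ratios scaling and -0.75 with quantile normalisation, passing in both (adjusted p = 0.000688 and 0.0110, limma). The fall in WDD lungs lay at the 1.31st percentile and was -1.34 after median-of-ratios scaling (adjusted p = 0.000565, limma). On average over the WDD libraries, long housekeeping transcripts lay at -0.88 and short ones at 0.92 from the control mean. Whether Tirap moved with either class by its length was not tested.

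Myd88, the adaptor shared by most Toll-like and interleukin-1 receptors, stood at 22.4, 26.9, 23.0, 27.8 and 21.5 FPKM in control libraries. In COPD libraries it stood at 32.4, 57.7, 44.8, 45.3 and 83.8 FPKM. In WDD libraries it stood at 22.7, 17.3, 22.4, 16.4 and 16.6 FPKM. All COPD libraries were above the other groups, and COPD 5 was the highest, as it was for Cd14. Myd88 had a log2 fold change of 1.02 ± 0.20 for COPD against control (adjusted p = 0.000215, limma), 1.92 after median-of-ratios scaling, and -1.36 ± 0.20 for WDD against COPD (adjusted p = 3.17e-05).

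The kinases that act with MYD88 changed little by comparison. Irak4, the first kinase of the complex, had 5.82 to 7.60 FPKM in control, 7.35 to 11.8 in COPD and 4.90 to 6.26 in WDD libraries, with group medians of 7.17, 8.99 and 5.67. Its log2 fold change was 0.42 ± 0.14 for COPD against control (adjusted p = 0.0116, limma) and -0.67 ± 0.14 for WDD against COPD (adjusted p = 0.000656), or 1.25 and -1.26 after median-of-ratios scaling. COPD and control libraries overlapped, whereas all WDD libraries lay below all COPD libraries. Irak1, which is phosphorylated by IRAK4, had 35.6 to 41.1 FPKM in control, 25.9 to 52.4 in COPD and 33.6 to 40.5 in WDD libraries. Its log2 fold change was -0.10 (-0.41 to 0.21, adjusted p = 0.549, limma) for COPD against control. After median-of-ratios scaling it turned to 0.81 (adjusted p = 7.23e-05). Between WDD and COPD lungs the Irak1 difference was -0.00 (-0.32 to 0.31) as deposited and -0.64 after that scaling (adjusted p = 0.00106).

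Irak3, the inhibitory homologue, stood at 9.38, 6.74, 9.25, 12.3 and 10.3 FPKM in control and at 35.3, 55.6, 36.9, 55.4 and 40.7 in COPD libraries. It stood at 7.24, 8.98, 8.64, 7.72 and 7.13 FPKM in WDD libraries. The COPD libraries were far above both other groups, which overlapped each other. For Irak3 the log2 fold change was 2.11 ± 0.17 for COPD against control (adjusted p = 2.12e-08, limma) and -2.33 ± 0.17 for WDD against COPD (adjusted p = 4.02e-08). In control lungs the mean of Irak3 was 9.60 ± 2.01 FPKM, beside 39.7 ± 2.31 for Irak1. In COPD lungs the inhibitor stood at 44.8 ± 9.98 FPKM and the kinase at 37.8 ± 9.48.

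**Figure D2:**
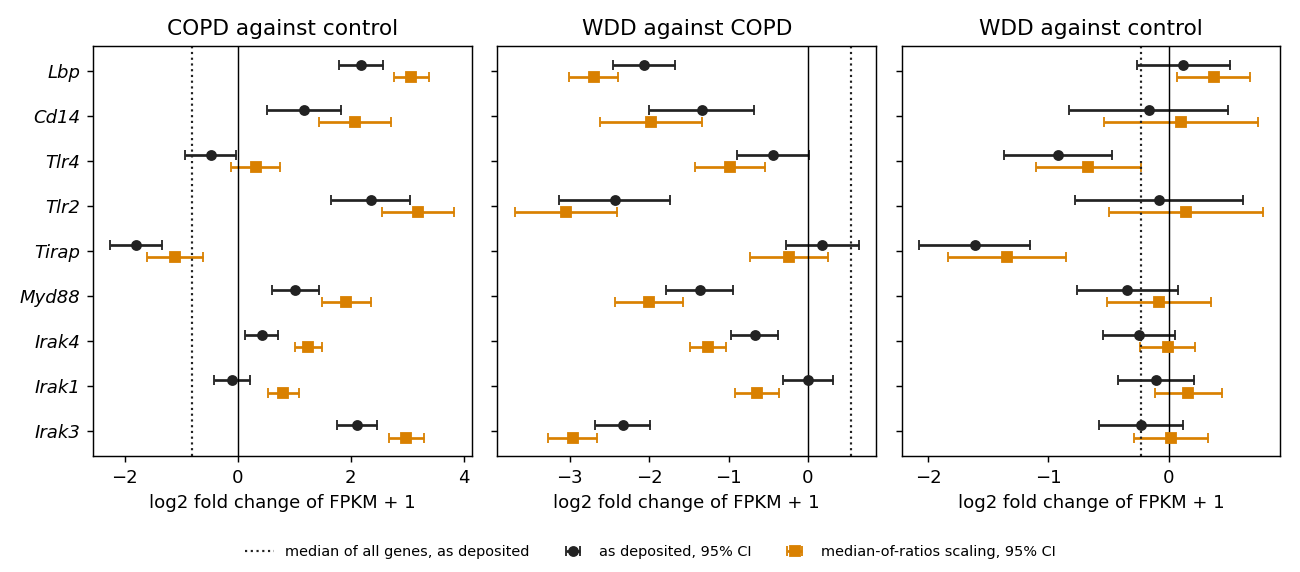
Log2 fold change of FPKM + 1 (horizontal axes) of the 9 genes in each comparison, as deposited (circles) and after median-of-ratios scaling (squares), with 95% confidence intervals; dotted lines are the median of all genes as deposited. Scaling shifts the 9 genes one way in the 2 comparisons with COPD lungs, and carries Tlr4 and Irak1 across 0 in COPD against control.

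In WDD against COPD lungs 6 of the 9 genes fell and 3 did not pass. Among all genes tested, 63.8% were called in either direction, 6.63% lower and 57.1% higher. The 6 were those that had risen in COPD lungs, but both comparisons use the same COPD libraries and are not independent. The median of the 9 genes was -1.34, beside 0.54 for all genes. After median-of-ratios scaling 8 fell, with Tirap left, where 21.4% of all genes were called lower and 23.3% higher. All WDD libraries lay below all COPD libraries in 5 of the 9 genes, beside 4.43% of all genes, and 40.6% of all genes had every WDD library above.

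In WDD against control lungs 2 of the 9 genes fell, Tirap and Tlr4, and 7 did not pass, beside 37.3% of all genes called in either direction, 31.0% lower and 6.35% higher. The share of members that fell is not above that background. The same 2 genes had every WDD library below every control library, as did 31.4% of all genes, while 6.76% had every WDD library above. After median-of-ratios scaling 2 members again fell, beside 17.2% of all genes lower and 15.7% higher. The confidence intervals of the other 7 log2 fold changes were -0.26 to 0.51 for Lbp, -0.82 to 0.49 for Cd14, -0.78 to 0.62 for Tlr2, -0.76 to 0.08 for Myd88, -0.54 to 0.05 for Irak4, -0.42 to 0.21 for Irak1 and -0.58 to 0.12 for Irak3. These intervals do not show that the groups were alike. Their widths rest on the spread of all 3 groups, COPD included. For Cd14 the SE was 0.31, and 0.11 with only the 2 groups compared, where it did not pass either (adjusted p = 0.229, limma). Myd88 did pass with only the 2 groups compared (-0.34, adjusted p = 0.0282, limma). The count of members that fell was 2 under each library left out in turn, and 4 after scaling to the FPKM sum without mitochondrial genes, where Myd88 (-0.49) and Irak4 (-0.38) were added.

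**Figure D3:**
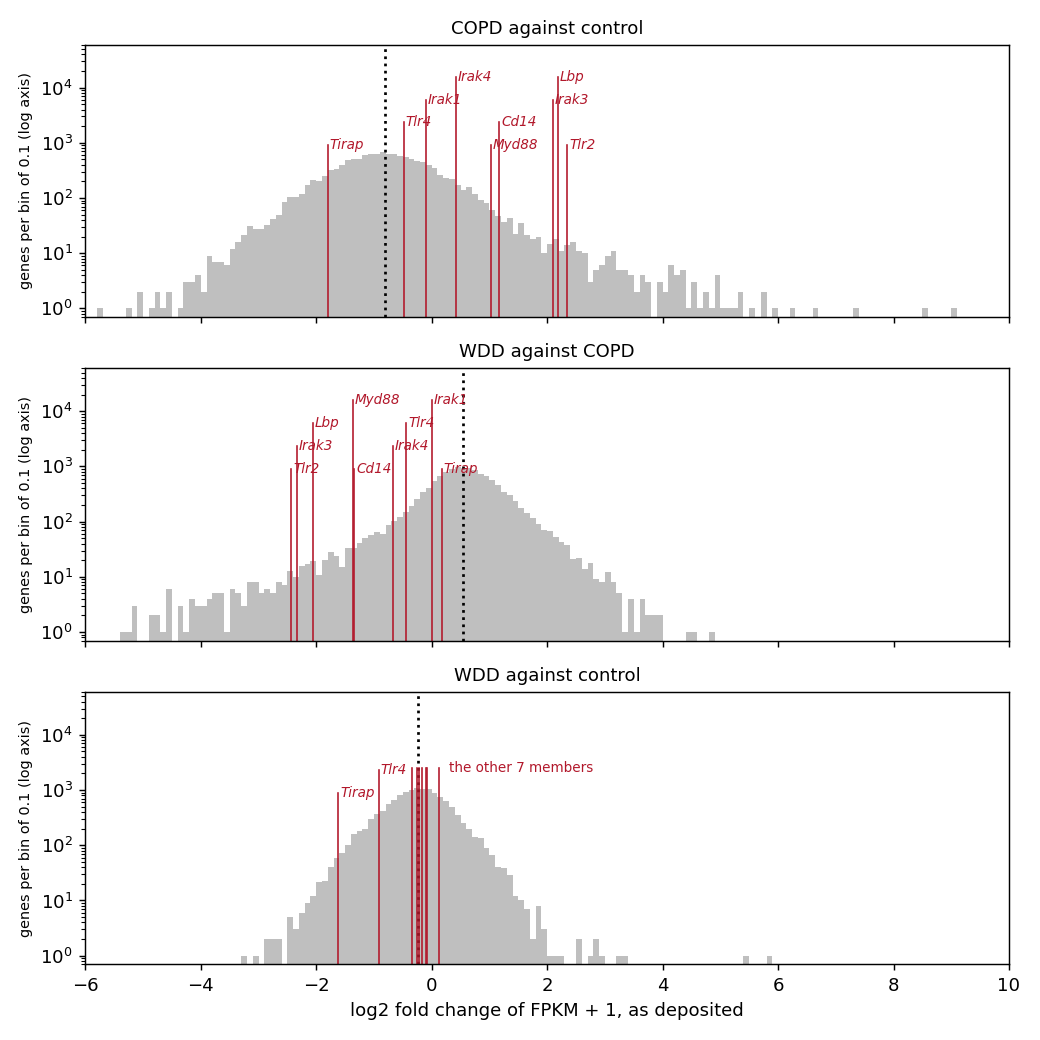
Histograms of the log2 fold changes of all 13172 genes tested in each comparison (bins of 0.1, logarithmic count axis), with the 9 genes as labelled lines and the median of all genes dotted. In COPD against control, 6 genes lie at the 90.6th percentile or higher, and in WDD against control Tirap and Tlr4 lie to the left of the other 7.

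Ratios of 2 genes within a library are not changed by multiplying the library by 1 factor, and 5 were compared by exact permutation tests (two-sided, 15 tests, Benjamini-Hochberg adjusted). A shift that differs with transcript length, as between the housekeeping lists above, would not cancel in them, and its part was not tested. The smallest p that an exact permutation of 5 against 5 allows is 0.00794, and 12 of the 15 tests passed. The pairs were chosen with earlier results of these data known, so this count is not independent of the single-gene results. Quantile normalisation does change such ratios, and 8 passed as differences of log2(FPKM + 1) after it, an alternative added after seeing the data. The ratio of Cd14 to Tlr4 had a median of 3.94 in control lungs, with a narrow range of 3.72 to 4.48, 14.9 (8.79 to 21.4) in COPD and 8.11 (5.73 to 9.71) in WDD lungs. On the log2 scale it rose by 1.77 from control to COPD (exact permutation, adjusted p = 0.0149) and stood 0.94 higher in WDD than in control lungs (adjusted p = 0.0149), without overlap in either case. Between WDD and COPD lungs it differed by -0.83 (exact permutation, adjusted p = 0.0496), a call that ended in 12 of 15 runs that left out 1 library (-0.99 to -0.67 over all 15). Groups of 4 allow fewer arrangements and so a larger smallest p. After quantile normalisation the 3 differences were 1.05, 0.50 and -0.55 (exact permutation, adjusted p = 0.0149, 0.0149 and 0.0714).

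The ratio of Tlr2 to Tlr4 had a median of 0.828 in control, 7.08 in COPD and 1.68 in WDD lungs. All COPD values, 4.88 to 9.09, were above the control range of 0.342 to 1.49 and the WDD range of 1.38 to 1.88. The log2 differences were 3.14 for COPD against control, -2.09 for WDD against COPD and 1.06 for WDD against control (exact permutation, adjusted p = 0.0149, 0.0149 and 0.0397). After quantile normalisation the last of these was 0.81 and did not pass (exact permutation, adjusted p = 0.0529). In WDD against control lungs neither Cd14 nor Tlr2 passed the test by itself, and Tlr4 was lower.

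The ratio of inhibitor to kinase, Irak3 to Irak1, had a median of 0.229 in control, 1.06 in COPD and 0.219 in WDD lungs. The log2 differences were 2.32 for COPD against control and -2.47 for WDD against COPD (exact permutation, adjusted p = 0.0149 for both), and the COPD range of 0.977 to 1.57 did not overlap the others. Irak3 to Irak4 had medians of 1.44, 4.73 and 1.36 and log2 differences of 1.74 and -1.71 (exact permutation, adjusted p = 0.0149 for both). WDD and control lungs differed in these ratios by -0.15 and 0.03 (exact permutation, adjusted p = 0.403 and 0.825). Myd88 to Irak4, partners in 1 complex, had medians of 3.51, 4.90 and 3.12. Its log2 differences of 0.58 and -0.65 passed narrowly (exact permutation, adjusted p = 0.0433 for both), and each call ended in 7 of 15 runs that left out 1 library. Without COPD 5 they were 0.37 and -0.44 (adjusted p = 0.0694 for both), and without COPD 1 and COPD 5 together 0.39 and -0.46 (adjusted p = 0.112 and 0.0731). After quantile normalisation they were 0.16 and -0.45 (exact permutation, adjusted p = 0.442 and 0.0758).

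**Figure D4:**
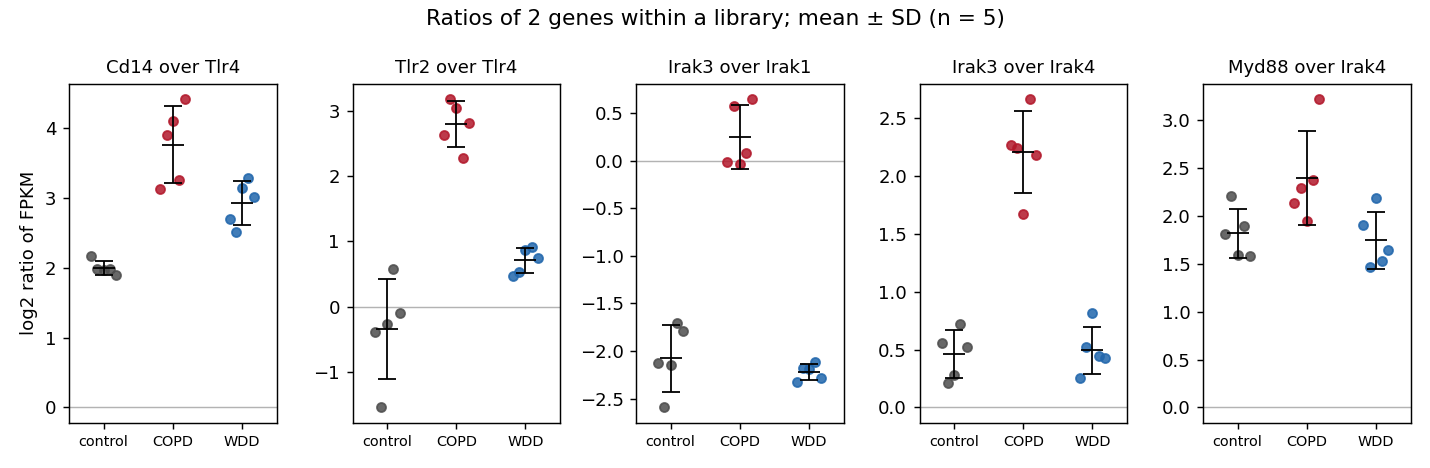
Log2 ratio of the FPKM of 2 genes in the same library (vertical axes) by group, with points for libraries and bars for mean ± SD of 5. The grey line is a ratio of 1. Irak3 over Irak1 has a median ratio of 1.06 in COPD lungs and 0.229 in control lungs.

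Because whole lung was sequenced, more cells of a type and more RNA per cell cannot be told apart. Of 12 markers of neutrophils, cells that carry Tlr2, Cd14 and Irak3, 10 were tested. Of these, 9 were higher in COPD than in control lungs, beside 8.23% of all genes. In WDD against COPD lungs 9 were lower, beside 6.63% of all genes. The summed level of the 12 markers was 45.1 to 97.8 FPKM in control, 11538 to 42771 in COPD and 87.4 to 438.6 in WDD libraries. Of 11 monocyte and macrophage markers 9 were tested, and 6 were lower in COPD than in control lungs, a share near the 66.4% of all genes called lower. After median-of-ratios scaling 5 were lower and 2 higher. Their sum was 12556 to 18480 FPKM in control, 1686 to 7000.2 in COPD and 11386 to 18837 in WDD libraries, and Marco was at 0 in all control libraries. COPD 5, with the highest Cd14, Tlr2 and Myd88, had the lowest neutrophil sum of its group, 11538 FPKM, and COPD 2, with the highest Lbp, Irak3 and Irak4, had the highest. The neutrophil sum rests mostly on S100a8 and S100a9, at up to 15681 and 26030 FPKM, with Mmp8 next at up to 618. The monocyte and macrophage sum rests mostly on Lyz2, at up to 18631 FPKM, with Cd68 next at up to 132. A rank of libraries by these sums is therefore a rank by few genes. The part of these cells in the results was not tested. Lung markers were present in all groups, the alveolar epithelial sum being 18032 to 26603 FPKM in control, 3478 to 15316 in COPD and 22098 to 24817 in WDD libraries. The endothelial marker Cldn5 was at 0 in every library.

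The wider pathway held 81 further genes in 7 lists, of which 67 were tested. In COPD against control 25 rose, 21 fell and 21 did not pass, with a median log2 fold change of -0.04 beside -0.81 for all genes, of which 8.23% were called higher and 66.4% lower. In WDD against COPD 31 fell and 12 rose, with a median of -0.52 beside 0.54, where 6.63% of all genes were called lower and 57.1% higher. In WDD against control 17 fell and 50 did not pass, a smaller share than the 31.0% of all genes called lower. After median-of-ratios scaling the counts for COPD against control were 39 higher and 11 lower, beside 30.0% and 32.6% of all genes, and 8 fell in WDD against control, beside 17.2%. The counts of each list below are to be read against these shares.

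**Figure D5:**
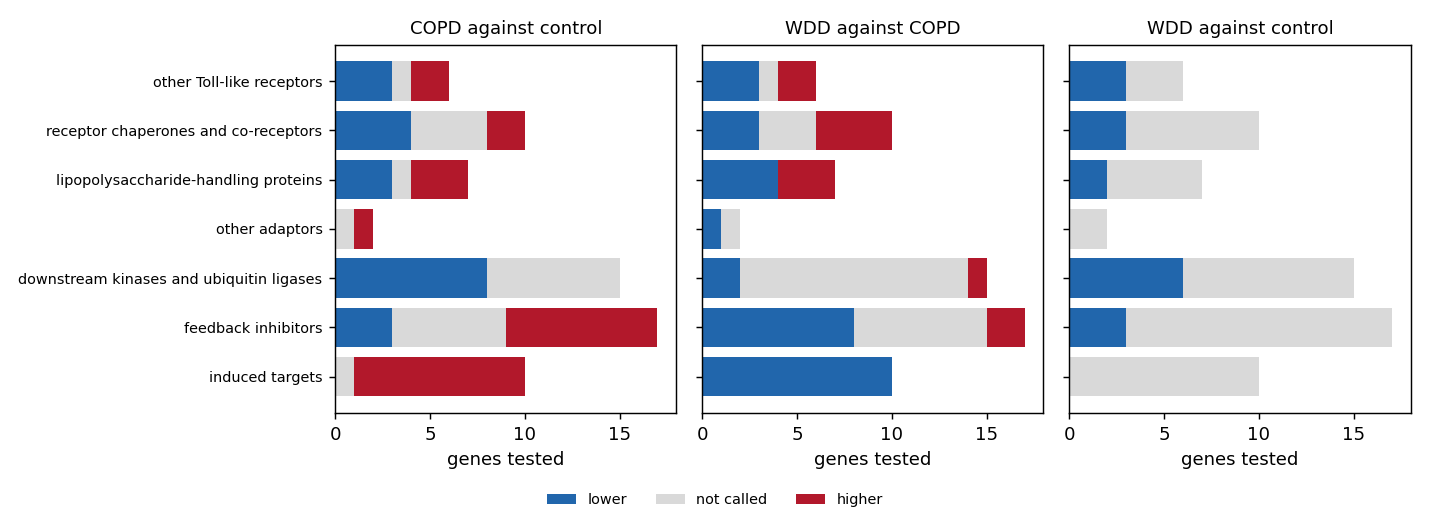
Number of tested genes in each of 7 pathway lists (bar length) called lower, not called and called higher at an adjusted p under 0.05 in each comparison. In COPD against control 9 of 10 induced targets were called higher, beside 8.23% of all genes. Il6, an induced target, passed the filter only through the COPD libraries. Of 15 downstream kinases and ligases, 8 were called lower, beside 66.4% of all genes.

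Among 6 other Toll-like receptors tested, 2 rose and 3 fell in COPD lungs (median -0.32), beside 8.23% and 66.4% of all genes. After median-of-ratios scaling 3 were higher and 2 lower, with a median of 0.36. The receptors that rose, Tlr1 and Tlr6, are the known partners of TLR2 on the cell surface, with log2 fold changes of 0.68 ± 0.24 and 0.47 ± 0.16 (adjusted p = 0.0162 and 0.0146, limma). In WDD against COPD lungs they fell by 0.81 ± 0.24 and 0.85 ± 0.16 (adjusted p = 0.00728 and 0.000318). The endosomal receptors for RNA fell in COPD lungs. Tlr8 went from 10.04 ± 3.88 to 0.300 ± 0.240 FPKM (-3.02 ± 0.31, adjusted p = 3.01e-07), Tlr3 fell by 1.10 ± 0.17 and Tlr7 by 0.78 ± 0.23. After median-of-ratios scaling Tlr3 was at -0.48 (adjusted p = 0.0387) and Tlr7 at -0.03 (adjusted p = 0.911), and with quantile normalisation Tlr3 was at -0.055 (adjusted p = 0.816). Tlr8 rose by 1.48 ± 0.31 in WDD against COPD lungs and remained 1.54 below control lungs (-1.54 ± 0.31, adjusted p = 0.00117). Tlr1 and Tlr6 were named after their values had been seen.

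Of 10 chaperones and co-receptors, 2 rose and 4 fell in COPD lungs (median -0.17), beside 8.23% and 66.4% of all genes. After median-of-ratios scaling 6 were higher and 1 lower (median 0.71). On the deposited values 3 fell and 4 rose in WDD against COPD lungs (median 0.28). Trem1, a receptor that amplifies Toll-like receptor signals in myeloid cells, rose from 10.9 ± 2.32 to 83.9 ± 32.4 FPKM (2.79 ± 0.25, adjusted p = 8.46e-08, limma) and was at 8.32 ± 2.98 in WDD lungs. Itgam, the CD11b integrin of neutrophils and monocytes, rose by 1.51 ± 0.20 in COPD lungs and fell by 2.20 ± 0.20 in WDD against COPD lungs. Scarb1, a lipoprotein receptor that takes up lipopolysaccharide, fell by 1.46 ± 0.24 and by 0.58 after median-of-ratios scaling (adjusted p = 0.0397).

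Lipopolysaccharide-handling proteins split, with 3 of 7 higher and 3 lower in COPD lungs (median 0.59), beside 8.23% and 66.4% of all genes. After median-of-ratios scaling 4 were higher and 3 lower. In WDD against COPD lungs 4 were lower and 3 higher on the deposited values (median -1.35). The 3 that fell in COPD lungs were the surfactant collectins Sftpd and Sftpa1, which bind lipopolysaccharide in the alveoli, and Pltp, a transfer protein of the same family as LBP. Sftpd went from 226 ± 19.1 to 63.0 ± 28.2 FPKM (-1.97 ± 0.27, adjusted p = 5.80e-06, limma) and stood at 218 ± 19.0 in WDD lungs. Pltp and Sftpa1 fell by 1.88 ± 0.27 and 1.68 ± 0.30, or by 0.97 and 0.75 after median-of-ratios scaling. Both collectins are among the markers in the alveolar epithelial sum given above, so the lower sum in COPD lungs is not separate from their falls.

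Of 2 other adaptors tested, Pik3ap1, which links Toll-like receptors to PI3 kinase, rose by 1.10 ± 0.29 in COPD lungs (adjusted p = 0.00277, limma) and fell by 1.73 ± 0.29 in WDD against COPD lungs. Downstream kinases and ubiquitin ligases included 8 of 15 that fell and 7 that did not pass in COPD lungs, with a median of -0.60, above the -0.81 of all genes. That share is below the 66.4% of all genes called lower, and after median-of-ratios scaling 6 were higher and 4 lower (median 0.29). In WDD against control lungs 6 of these 15 fell (median -0.36), beside 31.0% of all genes. Ikbkg, the regulatory subunit of the IKK complex, stood at 8.56 ± 1.36, 2.51 ± 0.670 and 2.83 ± 0.881 FPKM in control, COPD and WDD lungs. Like Tirap, it was lower in both exposed groups than in control lungs, by 1.45 ± 0.19 in COPD (-1.45, adjusted p = 2.83e-06, limma) and by 1.34 ± 0.19 in WDD lungs (-1.34, adjusted p = 7.79e-05), and its COPD call ended under quantile normalisation (adjusted p = 0.0565). Tab3 and Tab1, which bind the kinase TAK1, fell in COPD lungs by 1.51 ± 0.20 and 1.18 ± 0.16. Tab1 was at -0.39 after median-of-ratios scaling (adjusted p = 0.0152) and did not pass under quantile normalisation (adjusted p = 0.233).

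Of 17 feedback inhibitors, 8 rose and 3 fell in COPD lungs (median 0.79), beside 8.23% and 66.4% of all genes. After median-of-ratios scaling 9 were higher and 1 lower (median 1.26), beside 30.0% and 32.6%. On the deposited values 8 fell and 2 rose in WDD against COPD lungs (median -0.83). Bcl3, an atypical IkappaB protein, rose by 2.93 ± 0.25 (adjusted p = 3.89e-08, limma), Zc3h12a, an RNase that degrades cytokine transcripts, by 2.39 ± 0.28, and Tnip1, which binds ubiquitin with A20, by 1.79 ± 0.28. In WDD against COPD lungs they fell by 2.99 ± 0.25, 2.74 ± 0.28 and 1.97 ± 0.28. Among 10 induced targets 9 rose in COPD lungs (median 3.33), and 10 after median-of-ratios scaling (median 4.18). All 10 fell in WDD against COPD lungs (median -3.17). The chemokine Cxcl1 and the cytokines Il6 and Il1b rose by 5.30 ± 0.41, 4.56 ± 0.38 and 4.12 ± 0.43. Il6 reached at most 0.525 FPKM in control and 0.532 in WDD libraries, and at least 12.1 in COPD libraries. It thus passed the filter only through the COPD libraries, and its part in these counts is not independent of that filter. Tnf, the cytokine classed as an early target, stayed under the filter, at no more than 0.301 FPKM in any library.

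Genes whose pattern over the 15 libraries was most like that of a member were found by the root mean square difference of log2 values, each centred on its control mean, among 12217 named genes. For Tlr4 these were St3gal1, Jmjd1c and Rab11fip1, with differences of 0.24, 0.26 and 0.26. Nearest to Cd14 were P2ry6, Fblim1 and Nipa2 (0.28, 0.31 and 0.32). Lbp was closest to Exo5, Lsp1 and Cst7 (0.23, 0.24 and 0.28). Lsp1, a leukocyte protein, stood at a mean of 148.8 FPKM in control, 574.6 in COPD and 165.4 in WDD lungs. All of these share the libraries and their scaling with the members.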

How the data were processed

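Lung RNA of 3 groups of rats was sequenced, 15 libraries in all. TRIzol extraction and the NEBNext Ultra kit are named per the labels' protocols. Per the submitters' processing notes, cutadapt, HISAT2 and StringTie were used with build Rnor_6.0; versions, annotation release and strand use are not stated there or in the labels, so overlapping antisense genes cannot be told apart. The deposited values are FPKM computed by the authors. Read totals were not analysed here, and no counting intervals are given.

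Values were taken as log2(FPKM + 1), so fold changes of low genes are understated. The 13172 genes that reached an FPKM of 1 in 5 or more libraries were fitted by group over all 15 libraries. The fit used limma 3.58.1 under R 4.3.3 with moderated variances that follow the mean. It was first run on simulated data with equal spread in all groups and no library-wide shift, unlike the data here. Tests were two-sided, with Benjamini-Hochberg adjustment across every gene fitted. Ratios of deposited FPKM were compared by exact permutation tests in Python 3.11.15 (numpy 2.4.6, pandas 2.3.3, matplotlib 3.10.9). A ratio with Ly96 was planned and not computed.

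The members, lists, ratios and alternatives were chosen with earlier results of these data known. Named genes are the members, up to 3 called genes of lowest p in COPD against control in each pathway list, and 3 genes most like Tlr4, Cd14 and Lbp. Replicate numbers were not taken to pair the libraries.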

Additional observations from a re-analysis of the deposited data

Results flagged for a closer look

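A library was marked where its distance to the nearest other of its group exceeded 0.710 of the group's range, over 99 groups of 5 values of named genes and ratios. Chance marks about 1 in 20 groups, and 12 were marked. Several marks fell on COPD 5, and marks of the same library are not independent of each other. Over all genes tested, COPD 5 correlated with the other COPD libraries at 0.885 to 0.898. The other pairs of COPD libraries correlated at 0.961 to 0.980. Among the members, Tlr2 in WDD 2 (7.15 FPKM, the others 5.03 to 5.49) and Irak1 in control 5 (35.6 FPKM, the others 40.1 to 41.1) stood apart. COPD 5 was the highest of its group for Trem1 (139.97 FPKM), Bcl3 (219.5), Zc3h12a (168.4), Tnip1 (561.4), Cxcl1 (1772), Il6 (98.0) and Il1b (1355), where the other COPD libraries reached 82.95, 104.9, 67.5, 174.9, 764.7, 28.2 and 341.6 FPKM. Cxcl1 was also high in control 1 (42.5 FPKM, the others 11.5 to 17.1) and WDD 3 (47.1 FPKM, the others 13.6 to 15.8), and Tab3 in WDD 1 (1.89 FPKM, the others 0.556 to 0.693).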

How the results depend on the processing

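For the 9 members, the log2 fold changes of Tlr2, Lbp, Irak3, Cd14, Myd88 and Irak4 kept their direction and call in COPD against control and in WDD against COPD under all 25 alternatives, as did those of Tirap and Tlr4 in WDD against control, except that Tirap was not tested at a mean FPKM of at least 5. Depth is known only relative to control 2, and 5 libraries in each group limit the precision. The cause of the changes below was not tested.

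Median-of-ratios scaling gave in COPD against control 3947 genes higher and 4296 lower (1084 and 8749 as deposited), with 39 and 11 pathway genes (25 and 21), WDD against COPD gave 3075 higher and 2819 lower (7526 and 873), with 5 pathway genes higher (12), and WDD against control 2070 and 2262 (836 and 4079), with 1 pathway gene higher and 8 lower (17 lower as deposited). Under quantile normalisation the same counts were 3737 and 3893, with 40 and 6 pathway genes, then 2910 and 2469, with 7 higher, and then 2288 and 2408, with 1 and 10. With scaling to the FPKM sum without mitochondrial genes, WDD against COPD gave 4544 higher and 1511 lower, with 7 pathway genes higher, and 4 members fell in WDD against control. At a mean FPKM of at least 5, 0 members fell in COPD against control, since Tirap was not tested, and 1 in WDD against control, with 11 and 8 pathway genes lower and 2555 genes lower in WDD against control. With only the 2 groups compared, WDD against control gave 1642 genes higher, and 1 pathway gene higher and 30 lower. Without COPD 1 and COPD 5 together these were 1486, 1 and 29. Myd88 then passed in WDD against control (-0.34, adjusted p = 0.0282 and 0.0284, limma).

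Directions turned as follows. In COPD against control, Tlr4 was 0.32 by median of ratios and 0.51 by quantiles, and Irak1 0.81, 0.36 and, with the sum without mitochondrial genes, 0.10, or 0.081 without COPD 1 and COPD 5. Tlr7 was 0.25 under quantile normalisation. In WDD against COPD the values for those 3 scalings were -0.24, -0.47 and -0.052 for Tirap, -0.25, -0.37 and -0.015 for Tlr7, and -0.37, -0.53 and -0.15 for Ikbkg, and under quantile normalisation -0.10 for Tlr3 and -0.20 for Tab3. In WDD against control, median-of-ratios scaling gave 0.14 for Tlr2, 0.10 for Cd14, 0.17 for Irak1, 0.019 for Irak3 and 0.0029 for the median of all genes. There quantile normalisation gave 0.30 for Tlr2, 0.14 for Irak3, 0.16 for Irak4 and 0.020 for the median, and the sum without mitochondrial genes -0.026 for Lbp.

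Leaving out 1 library at a time gave 1 to 2 members lower in COPD against control, and log2 fold changes of -0.22 to 0.023 for Irak1 in that comparison, -0.13 to 0.12 for Irak1 in WDD against COPD and -0.38 to 0.15 for Tlr2 in WDD against control. The ratio of Irak3 to Irak4 differed by -0.048 to 0.10 and that of Myd88 to Irak4 by -0.18 to 0.025 between WDD and control lungs. Between 9 and 13 of the 15 ratio tests passed, against 12 with all libraries. After quantile normalisation Irak3 to Irak1 differed by 0.14 and Irak3 to Irak4 by -0.022 between WDD and control lungs. The replicate number of the labels as a block changed no call of a member and left the counts at 6 higher and 1 lower, 6 lower, and 2 lower in the 3 comparisons. Of 15 pairs of libraries with the same number, 1 had a correlation of deviations above 0.1, so the numbers were not taken to pair them.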
